A study of Mus musculus with 8 samples.

Results

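The genes described here encode 10 cytokines that activated T cells can make besides interferon gamma, namely Il2, Il3, Csf2, Tnf, Lta, Ltb, Il10, Il21, Il22 and Tgfb1. They were picked by name, and each was matched to the gene symbol that the deposited transcript identifiers carry, which found all 10 members among 54146 genes. The data are RNA-seq of EL4, a mouse T lymphoma cell line, in 4 lines with 2 libraries each. All cells, controls included, had received 50 ng/ml of phorbol 12-myristate 13-acetate (PMA) together with 1 μM ionomycin for 4 hours before RNA was taken, so an unstimulated level is not analysed here. The GFP + Plum line carried the fluorescent proteins GFP and Plum as controls, the T-bet + Plum line FLAG-tagged T-bet and Plum, the GFP + GATA3 line GFP and HA-tagged GATA3, and the T-bet + GATA3 line both tagged factors. The tagged proteins came on top of the line's own Gata3 gene, and each pair of constructs is represented by 1 line, so differences between constructs and between lines cannot be told apart. The methods of the study define replicates as separate harvests of a line, and the 2 libraries of each line were treated as such. The comparisons ask how each transcription factor, alone and with the other, changed the levels of these cytokine genes.

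T cells release cytokines after their antigen receptor is engaged. PMA and ionomycin bypass the receptor and switch on protein kinase C and calcium signalling, which act on the promoters of cytokine genes through NFAT, AP-1 and NF-κB. T-bet, the product of Tbx21, and GATA3 are the transcription factors that define TH1 and TH2 cells. IL-2 drives T cell growth, whereas IL-3 and GM-CSF, the product of Csf2, act on myeloid cells and are encoded next to each other. TNF and lymphotoxin alpha (Lta) are inflammatory relatives encoded side by side with lymphotoxin beta (Ltb), which holds lymphotoxin alpha at the cell surface. IL-22 acts on epithelial cells, IL-21 on B cells, and IL-10 and TGF-β1 dampen immune responses.

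The libraries held between 8038284 and 16003190 estimated counts. Tbx21 was at 128 and 159 CPM, which are counts scaled to a common library size, in T-bet + Plum and at 135 and 159.8 in T-bet + GATA3, against 1.77 to 3.58 in the 4 libraries without FLAG-T-bet. Gata3 was at 283 and 325 CPM in GFP + GATA3 and at 203 and 165 in T-bet + GATA3, against 25.7 to 53.2 in the 4 libraries without HA-GATA3. The introduced and the native copies were not told apart in these counts. All 7 T cell markers examined were detected in each line, and their summed level was 1667 to 1805 CPM in the libraries without FLAG-T-bet and 2327 to 2758 CPM in those with it, a shift whose part in the results was not tested. The markers did not move together. Trbc2, the largest of them, was at 1001 CPM in GFP + Plum and 1612 in T-bet + Plum. Thy1 went the other way, from 290 to 218 CPM, and Cd3g hardly differed (77.4 and 75.9). Sums of 4 B cell markers reached 1.24 CPM and of 4 macrophage markers 4.14 CPM at most.

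The start regions of 5 members are shown because these genes carry the differences described below, and because Csf2 and Il3 are neighbours that went apart. Each is the stretch of 250 bases that ends just before the gene's annotated start, from RefSeq on GRCm38.p6, written 5′ to 3′ in the direction of transcription, with motif matches in capitals.
Il2, chr3:37125955-37126204, reverse strand: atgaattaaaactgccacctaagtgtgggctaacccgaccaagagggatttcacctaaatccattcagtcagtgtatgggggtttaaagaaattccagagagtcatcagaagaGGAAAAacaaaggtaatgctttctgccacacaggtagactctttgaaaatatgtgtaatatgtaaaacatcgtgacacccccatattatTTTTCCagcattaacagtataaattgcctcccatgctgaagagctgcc
Tnf, chr17:35202008-35202257, reverse strand: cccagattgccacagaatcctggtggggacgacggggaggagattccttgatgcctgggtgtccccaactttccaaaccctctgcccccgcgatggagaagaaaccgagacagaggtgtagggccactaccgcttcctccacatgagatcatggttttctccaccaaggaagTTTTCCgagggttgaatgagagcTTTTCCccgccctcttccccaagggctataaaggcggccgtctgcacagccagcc
Csf2, chr11:54249900-54250149, reverse strand: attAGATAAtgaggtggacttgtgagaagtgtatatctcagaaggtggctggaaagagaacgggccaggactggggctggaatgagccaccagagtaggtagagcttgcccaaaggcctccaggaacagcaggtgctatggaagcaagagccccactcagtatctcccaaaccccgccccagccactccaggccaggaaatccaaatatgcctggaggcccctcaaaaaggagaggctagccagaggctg
Il3, chr11:54267280-54267529, reverse strand: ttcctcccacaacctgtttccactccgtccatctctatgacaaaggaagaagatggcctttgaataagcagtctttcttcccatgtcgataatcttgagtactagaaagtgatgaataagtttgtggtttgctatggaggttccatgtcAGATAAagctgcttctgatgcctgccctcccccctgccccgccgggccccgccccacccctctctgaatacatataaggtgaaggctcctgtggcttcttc
Il22, chr10:118204714-118204963, forward strand: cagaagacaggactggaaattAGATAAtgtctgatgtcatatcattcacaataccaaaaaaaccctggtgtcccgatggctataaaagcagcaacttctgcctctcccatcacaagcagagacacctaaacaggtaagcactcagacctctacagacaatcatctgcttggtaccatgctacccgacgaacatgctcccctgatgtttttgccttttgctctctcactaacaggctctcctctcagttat
Windows were found for 9 of the 10 members and searched on both strands for 5 motifs. NFAT letters (GGAAAA) were found 2 times each in Il2, Tnf and Il21, while 20.4% of the 32851 RefSeq windows of this length held at least 1 match. In Il2 they lay at -137 to -132 and -48 to -43, counted from the start, and in Tnf at -78 to -73 and -55 to -50. Il22, Csf2 and Il3 each held 1 match to GATA letters (AGATAA), at -229 to -224, -247 to -242 and -101 to -96, against 9.99% of all windows. For NF-κB the letters were GGG, any 2 bases and TTTCC, found 1 time in Ltb and in 1.41% of all windows. The T-box letters (GGTGTGA) are held by 3.33% of all windows and by no window of the 9 members. Likewise, the AP-1 letters (TGANTCA), held by 6.75% of all windows, were absent from those 9. The windows of Lta and Tgfb1 held no match to any of the 5 motifs, and no match in a member overlapped another. The RefSeq start of Csf2 lies 232 bases upstream of the Gencode M21 start, and the bases between these 2 starts were not searched. The absence of a motif from the Csf2 window does not cover them. For Il22 the starts lie 22 bases apart, whereas for Il2, Tnf and Il3 the distance was at most 5 bases. A match is a stretch of letters and was not tested as a binding site.

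Levels between genes are compared in TPM, which scale the counts for transcript length as well. In GFP + Plum the order of the mean TPM was Tnf (224 ± 25.8, SD, n = 2), Il2 (174 ± 5.17), Tgfb1 (173 ± 22.0), Lta (91.1 ± 19.99), Csf2 (60.9 ± 33.6), Il3 (52.0 ± 17.1) and Ltb (7.07 ± 2.36), with Il10 and Il22 near 1 TPM and Il21 at 0. Il2 and Tgfb1 differed by less than their spread there, as did Csf2 and Il3. In T-bet + Plum the order began with Csf2 (521 ± 311 TPM), Il2 (394 ± 132) and Tnf (335 ± 35.5), and in T-bet + GATA3 again with Csf2 (416 ± 65.0), Il2 (306 ± 103) and Tnf (219 ± 14.9). The libraries of these 3 genes overlapped in T-bet + Plum. In T-bet + GATA3 the libraries of Csf2 and Il2 overlapped as well. In GFP + GATA3 Tgfb1 led at 205 ± 11.04 TPM, followed by Tnf at 133 ± 6.47, Il2 at 81.8 ± 4.51 and Lta at 35.1 ± 17.1. The Tgfb1 values sum 5 transcript models, and its place in this order depends on counting them all. Its protein-coding model alone was at 106 ± 5.35 TPM in GFP + GATA3, under Tnf, and at 93.4 ± 3.66 in GFP + Plum, under Il2. Counted in CPM, without the length correction, Tnf led in both lines with FLAG-T-bet, ahead of Il2 and Csf2. Tgfb1 led in GFP + GATA3 in CPM too, at 240 beside 183 for Tnf.

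The summed TPM of the 10 genes was 844 and 726 in GFP + Plum, 1916 and 1358 in T-bet + Plum, 545 and 468 in GFP + GATA3, and 1079 and 1353 in T-bet + GATA3. Csf2 made up 2.06% to 10.0% of this sum in the libraries without FLAG-T-bet and 22.2% to 38.7% in those with it. Tgfb1, with all its transcript models counted, made up 36.1% and 45.4% in GFP + GATA3 and 9.04% to 26.0% in the other lines. Il2 stayed between 15.6% and 27.99% in all 8 libraries.

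**Figure D1:**
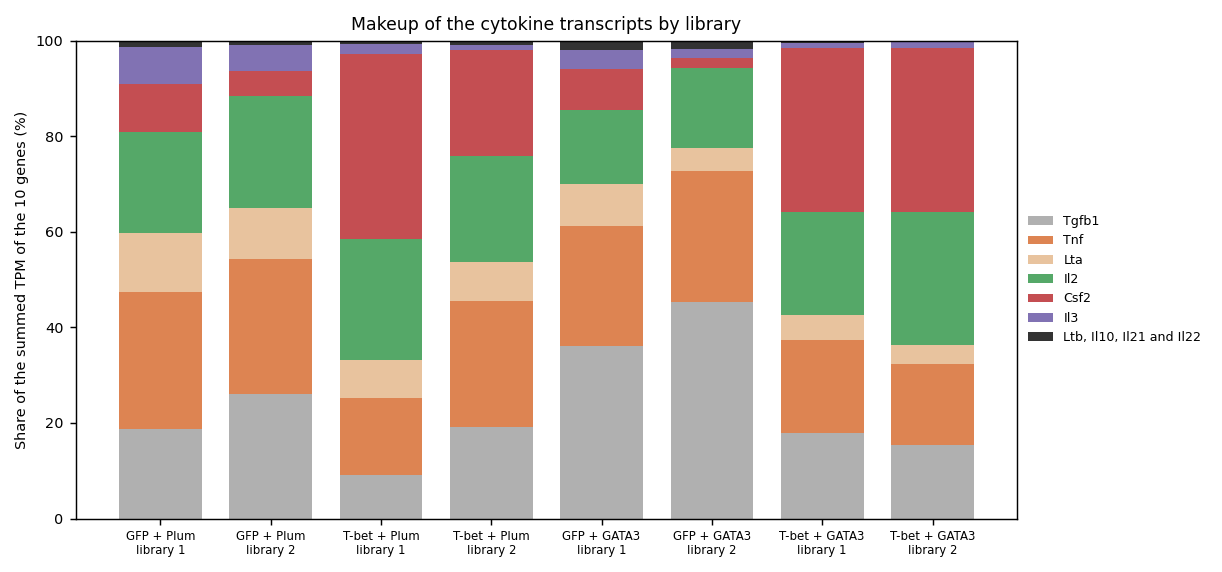
Stacked bars give the share of each gene in the summed TPM of the 10 cytokine genes, in percent, for each of the 8 libraries. The Csf2 share lies between 22.2% and 38.7% in the libraries with FLAG-T-bet and between 2.06% and 10.0% in the others.

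Genes were compared between lines with edgeR's quasi-likelihood test in 1 fit of the 8 libraries, with FDR adjustment over the 14791 genes that passed the filter on low counts. Of the members, 9 passed that filter and Il21 did not. A gene is said to have risen or fallen at an FDR of at most 0.05, and is called when its log2 fold change (FC) also exceeds 1.5 in size. In bulk RNA, fewer cells making a transcript and less transcript per cell cannot be told apart.

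Il2 (ENSMUSG00000027720.7, chromosome 3, 37120523 to 37125959), which encodes the T cell growth factor IL-2, was at 165 and 178 CPM in GFP + Plum, 493 and 306 in T-bet + Plum, 80.4 and 73.9 in GFP + GATA3, and 266 and 382 in T-bet + GATA3. The 4 libraries with FLAG-T-bet lay above the 4 without, and the GFP + GATA3 libraries were the lowest. Il2 rose in T-bet + Plum versus GFP + Plum with a log2 FC of 1.22 (SE 0.24, edgeR FDR = 0.0250) and in T-bet + GATA3 versus GFP + GATA3 with 2.07 (SE 0.25, FDR = 0.00317). The log2 FC of GFP + GATA3 versus GFP + Plum was -1.15 (SE 0.25, edgeR FDR = 0.447), and that of T-bet + GATA3 relative to T-bet + Plum was -0.30 (95% interval -0.85 to 0.25). The rise in T-bet + Plum no longer passed without T-bet + Plum library 1 (log2 FC 0.84, edgeR FDR = 0.131) or without either GFP + Plum library (FDR = 0.0817 and 0.0832). The rise in T-bet + GATA3 passed with each of the 8 libraries left out in turn, and DESeq2 also gave Il2 an FDR under 0.05 in GFP + GATA3 versus GFP + Plum (0.000668).

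Csf2 (ENSMUSG00000018916.5, chromosome 11, 54247271 to 54249667) encodes GM-CSF, a growth factor for granulocytes and macrophages. It was at 53.3 and 26.3 CPM in GFP + Plum, 509 and 208 in T-bet + Plum, 29.6 and 6.14 in GFP + GATA3, and 288 and 317 in T-bet + GATA3. All 4 libraries with FLAG-T-bet exceeded all 4 without, by several-fold even at the nearest pair. Csf2 rose with a log2 FC of 3.17 (SE 0.69, edgeR FDR = 0.0354), a fold of 8.99, in T-bet + Plum versus GFP + Plum. In T-bet + GATA3 versus GFP + GATA3 the log2 FC was 4.12 (SE 0.74, edgeR FDR = 0.0165), a fold of 17.4 with a wide 95% interval of 2.42 to 5.82 on the log2 scale. HA-GATA3 had no detected effect in either setting, with intervals of -2.77 to 0.39 without FLAG-T-bet and -1.70 to 1.22 with it. The libraries of a line differed by up to several-fold for this gene. The first of these rises failed the FDR limit in 6 of the 8 fits that left out 1 library, namely without T-bet + Plum library 1 (log2 FC 2.39, edgeR FDR = 0.177) or library 2 (3.68, FDR = 0.0706), GFP + Plum library 1 (3.76, FDR = 0.0572) or library 2 (2.75, FDR = 0.157), and either T-bet + GATA3 library (FDR = 0.0518 and 0.0514). The second failed without GFP + GATA3 library 2 (3.35, edgeR FDR = 0.0552) or T-bet + GATA3 library 1 (4.17, FDR = 0.0515). Averaged over the lines with and without HA-GATA3, the T-bet effect on Csf2 was 3.64 (SE 0.51, edgeR FDR = 0.00248) and passed in each of those 8 fits.

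Il3 (ENSMUSG00000018914.5, chromosome 11, 54265303 to 54267277), the gene of a growth factor for blood cell progenitors, starts 17.6 kb from Csf2. It was at 30.9 and 21.6 CPM in GFP + Plum, 21.6 and 6.83 in T-bet + Plum, 11.2 and 3.99 in GFP + GATA3, and 7.34 and 10.0 in T-bet + GATA3. The GFP + Plum libraries lay above both lines with HA-GATA3, and T-bet + Plum overlapped the other 3 lines. Il3 passed no comparison, with a log2 FC of -0.92 (95% interval -2.23 to 0.39) in T-bet + Plum versus GFP + Plum and 0.24 (-1.15 to 1.62) in T-bet + GATA3 versus GFP + GATA3. The sign of the latter turned without GFP + GATA3 library 2 or T-bet + GATA3 library 2 (-0.35 and -0.052). The log2 FC of GFP + GATA3 versus GFP + Plum was -1.82 (SE 0.59, edgeR FDR = 0.976).

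The ratio of Csf2 to Il3 in TPM therefore separated the libraries with FLAG-T-bet from those without. It was 1.32 and 0.931 in GFP + Plum and 2.03 and 1.18 in GFP + GATA3, but 18.01 and 23.4 in T-bet + Plum and 30.0 and 24.2 in T-bet + GATA3. The lowest ratio with FLAG-T-bet exceeded the highest without it, and in each line the 2 libraries lay closer together in this ratio than in either TPM level. Both genes have 1 transcript model in the deposited values, of 800 bases for Csf2 and 629 bases for Il3, so no split between isoforms enters the ratio.

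**Figure D2:**
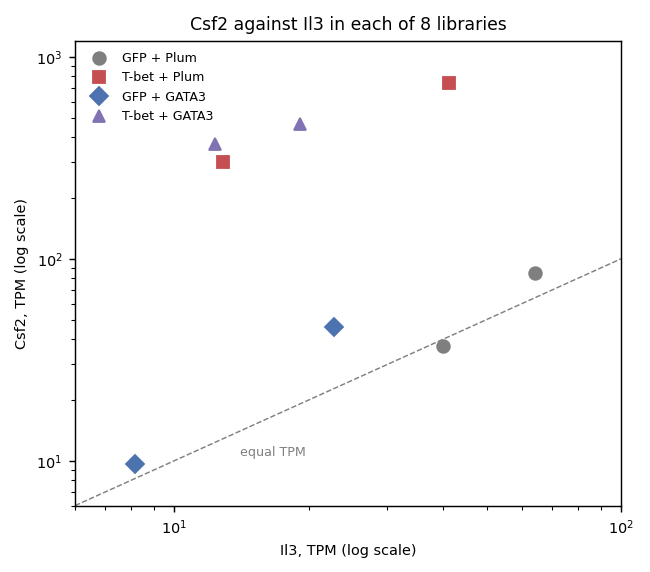
Each point is 1 library, with Il3 on the horizontal and Csf2 on the vertical axis, both in TPM on log scales, and the dashed line marks equal TPM. Libraries without FLAG-T-bet lie near the line, at ratios of 0.931 to 2.03, and those with it lie at 18.01 to 30.0.

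Tnf (ENSMUSG00000024401.14, chromosome 17, 35199381 to 35202007), the gene of tumour necrosis factor, was at 328 and 314 CPM in GFP + Plum, 457 and 535 in T-bet + Plum, 189.8 and 176 in GFP + GATA3, and 348 and 339 in T-bet + GATA3. The libraries of each line lay close together and no 2 lines overlapped. Tnf rose in T-bet + Plum versus GFP + Plum with a log2 FC of 0.63 (SE 0.12, edgeR FDR = 0.0216), and in T-bet + GATA3 versus GFP + GATA3 with 0.91 (SE 0.12, FDR = 0.00478). Neither reached the fold limit. With HA-GATA3 the log2 FC was -0.81 (95% interval -1.09 to -0.53, edgeR FDR = 0.144) versus GFP + Plum and -0.53 (-0.81 to -0.25, FDR = 0.689) versus T-bet + Plum. In the line with both factors Tnf stood near the control, with a log2 FC versus GFP + Plum of 0.099 (95% interval -0.18 to 0.38). The rise in T-bet + Plum failed the FDR limit in 5 of the 8 fits that left out 1 library, at 0.167 and a log2 FC of 0.51 without T-bet + Plum library 2, at 0.0516 and 0.0875 without GFP + Plum library 1 or 2, and at 0.0509 and 0.0520 without GFP + GATA3 library 1 or 2. It also failed in a fit of the 4 libraries alone (0.0803). The rise in T-bet + GATA3 failed without GFP + GATA3 library 2 (log2 FC 0.86, FDR = 0.0689), and the average T-bet effect of 0.77 (SE 0.086, edgeR FDR = 0.000842) passed in each such fit.

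Lta (ENSMUSG00000024402.5, chromosome 17, 35203165 to 35205351) starts 3.3 kb from Tnf. It was at 119 and 98.1 CPM in GFP + Plum, 187 and 138 in T-bet + Plum, 54.7 and 26.5 in GFP + GATA3, and 79.1 and 65.5 in T-bet + GATA3. The 4 libraries with HA-GATA3 lay below the 4 without, and within each GATA3 state the libraries with FLAG-T-bet were the higher. Averaged over the T-bet states, the log2 FC with HA-GATA3 was -1.30 (SE 0.22, edgeR FDR = 0.140). The average T-bet effect was 0.71 (SE 0.22, edgeR FDR = 0.0674). Both missed the FDR limit, and both passed it without GFP + GATA3 library 1 (-1.60 with FDR = 0.0281, and 1.01 with FDR = 0.00899). They also passed with DESeq2 (1.59e-07 and 0.00658). Without GFP + GATA3 library 1 the log2 FC of T-bet + GATA3 versus GFP + GATA3 was 1.45 (edgeR FDR = 0.0405), against 0.84 (FDR = 0.188) with it.

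Ltb (ENSMUSG00000024399.5, chromosome 17, 35194439 to 35196320) starts 7.6 kb on the other side of Tnf and was much lower. It was at 8.16 and 5.83 CPM in GFP + Plum, 11.9 and 12.4 in T-bet + Plum, 5.06 and 1.71 in GFP + GATA3, and 2.48 and 1.99 in T-bet + GATA3. As for Lta, the libraries with HA-GATA3 lay below those without. T-bet + Plum was the highest line and T-bet + GATA3 overlapped GFP + GATA3. The log2 FC of T-bet + GATA3 relative to T-bet + Plum was -2.45 (95% interval -3.53 to -1.38, edgeR FDR = 0.396), and DESeq2 gave an FDR of 0.000971. The average GATA3 effect was -1.77 (edgeR FDR = 0.179), and it was -2.24 (FDR = 0.0334) without GFP + GATA3 library 1. Counts of Ltb were low, at 23 to 182 per library. Its transcript models also moved with the line. A model of 905 bases held 85.1% and 91.8% of the Ltb TPM in the T-bet + GATA3 libraries and 0% to 30.6% in the other 6, which drew mostly on the model of 1160 bases. With length offsets, which scale counts for transcript length, the DESeq2 log2 FC relative to T-bet + Plum was -2.13 (FDR = 0.0115) in place of -2.45. Versus GFP + Plum Ltb passed the FDR limit with DESeq2 (-1.67, FDR = 0.0182) but not with those offsets. Beyond these fits, the part of the split in the lower Ltb level of T-bet + GATA3 was not tested.

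Il22 (ENSMUSG00000074695.3, chromosome 10, 118204942 to 118210047), an epithelium-directed relative of IL-10, ran against Csf2, Il2 and Tnf. It had 12 and 14.4 estimated counts in GFP + Plum (0.741 and 0.887 CPM) and 17 and 56.1 in GFP + GATA3 (1.62 and 3.55 CPM), and 0 counts in all 4 libraries with FLAG-T-bet. Every library without FLAG-T-bet thus held Il22 reads and every library with it held none. With the lines at 0 set to a floor of 3 counts per library, which covers counting error only, Il22 was at least 2.82-fold lower in T-bet + Plum than in GFP + Plum (edgeR FDR = 0.0477). It was at least 9.88-fold lower in T-bet + GATA3 than in GFP + GATA3 (FDR = 0.0134). The first of these passed without T-bet + GATA3 library 1 or library 2, and failed without any of the other 6 libraries, with FDRs of 0.0564 to 0.247. The second failed without GFP + GATA3 library 2 (FDR = 0.0841). The average T-bet effect (FDR = 0.00353) passed in each of the 8 fits. GFP + GATA3 was above GFP + Plum with a log2 FC of 1.68 (95% interval 0.33 to 3.02, edgeR FDR = 1.0). Iltifb, a near-identical copy 90.1 kb away that can share reads with Il22, held 0 to 5.56 counts, and the bounds for the sum of both genes were 3.48 and 10.1. Ifng starts 236.1 kb from Il22. It was at 0.185 to 0.697 CPM in the 4 libraries that held Il22 reads and at 2784 to 3964 CPM in the 4 that held none.

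Il10 (ENSMUSG00000016529.5, chromosome 1, 131019845 to 131024974) encodes an anti-inflammatory cytokine. It had 41 and 9 counts in GFP + Plum, 2 and 15 in T-bet + Plum, 36 and 45 in GFP + GATA3, and 21 and 1 in T-bet + GATA3. Libraries of the same line differed as much as lines did, except in GFP + GATA3. The average T-bet effect was -1.35 (95% interval -3.21 to 0.50, edgeR FDR = 0.319), and with no filter on low counts it passed (-1.36, edgeR FDR = 0.00189). Il21 (ENSMUSG00000027718.8, chromosome 3, 37222759 to 37232636), which starts 106.7 kb from Il2, had 1 count in GFP + GATA3 library 1, 3 counts in T-bet + GATA3 library 2 and 0 elsewhere, at or under the floor in each library.

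Tgfb1 (ENSMUSG00000002603.15, chromosome 7, 25687002 to 25705077), whose product restrains T cells, was at 197 and 239.8 CPM in GFP + Plum, 216 and 335 in T-bet + Plum, 232 and 248 in GFP + GATA3, and 275 and 256 in T-bet + GATA3. The lines overlapped apart from T-bet + GATA3, both of whose libraries lay above both of GFP + GATA3 and of GFP + Plum. The average effect of T-bet was 0.24 (edgeR FDR = 0.319) and that of GATA3 0.041 (FDR = 1.0). The latter changed sign when 1 library was left out, over a range of -0.099 to 0.22. Of its TPM, 50.3% to 57.6% lay on the protein-coding model of 2175 bases and 32.2% to 43.6% on a retained intron model of 495 bases. The mean share of the coding model was 51.3% to 54.2% in the 4 lines.

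**Figure D3:**
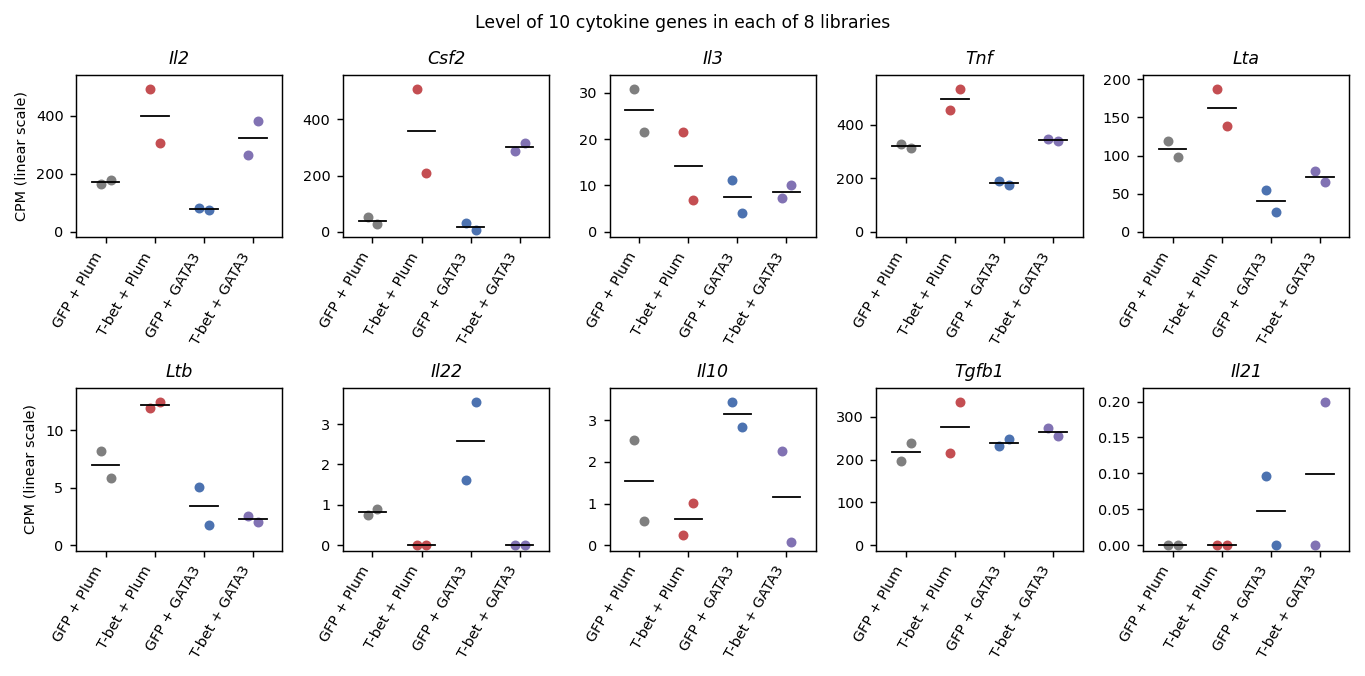
Each panel gives 1 gene in CPM on a linear axis, with 1 point per library, the mean of the 2 libraries of a line as a bar, and a scale of its own. Csf2, Il2 and Tnf are higher in the libraries with FLAG-T-bet, Lta and Ltb lower in those with HA-GATA3, and Il22 is at 0 in those with FLAG-T-bet.

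Counted over the 9 members tested, 3 rose (Csf2, Il2 and Tnf) and 1 fell (Il22) in T-bet + Plum versus GFP + Plum, where 6.2% of all genes passed the FDR limit, 4.04% upwards and 2.16% downwards. With the fold limit, 2 members (Csf2 and Il22) were called, against 3.02% of all genes. That count was 0 without GFP + Plum library 1 or 2 or T-bet + Plum library 1, and 1 without any of the other 5 libraries. T-bet + GATA3 versus GFP + GATA3 shares no library with the former, but both come from 1 fit with a shared estimate of the spread. In that second comparison the same 3 members rose and the same 1 fell, against 5.77% of all genes, 3.73% upwards and 2.05% downwards. With the fold limit 3 members (Csf2, Il2 and Il22) were called, against 2.85%, and 1 without GFP + GATA3 library 2. The median log2 FC of the 9 members was 0.58 in the former and 0.24 in the latter, beside 0.011 for all genes in each. The 4 libraries with FLAG-T-bet lay above the 4 without for 3 members and for 12.5% of all genes, and below for 1 member and 10.2% of all genes. Averaged over the GATA3 states, Csf2, Il2, Tnf and Il22 passed the FDR limit, as did 15.2% of all genes (8.55% upwards and 6.61% downwards), and 3 members were called, against 4.5%. Il22 was at 0 in the lines with FLAG-T-bet, so its place among the called genes rests on a fitted fold that depends on the prior count. It passed the filter on low counts only through the lines without FLAG-T-bet, and a gene that enters so can only be seen to fall. The counts above of members that fell or were called thus include a gene whose direction the filter fixed. With at least 10 counts required in every library Il22 was not tested.

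With HA-GATA3 no member passed the FDR limit in the main edgeR fit, in either T-bet state or on average. Of all genes 0.0203% passed in GFP + GATA3 versus GFP + Plum, 0.0338% with both factors against T-bet + Plum and 0.0608% on average. Other edgeR fits did pass members, 5, 2 and 6 of them with no filter on low counts. With the replicate block Lta and Tnf passed on average. Shares of all genes at the FDR limit alone are not given here for these other fits. At an unadjusted p below 0.05 in edgeR, 5 of the 9 members (Il2, Il3, Lta, Ltb and Tnf) were lower in GFP + GATA3 than in GFP + Plum, against 1.53% of all genes, and 1 (Il22) was higher, against 2.16%. At the same limit 3 members (Lta, Ltb and Tnf) were lower in T-bet + GATA3 than in T-bet + Plum, against 1.9%, and 5 (Il2, Il3, Lta, Ltb and Tnf) were lower on average, against 2.12%. The median log2 FC of the members was -1.09 without FLAG-T-bet and -0.30 with it, beside -0.0044 and 0.00068 for all genes. DESeq2 gave an FDR of at most 0.05 to Il2, Lta and Tnf in the first comparison, to Lta and Ltb in the second, and to Il2, Lta, Ltb and Tnf on average. Past both the FDR and the fold limit, DESeq2 had 29, 23 and 30 of all genes in these, against 3, 5 and 7 in edgeR. Its share of all genes at the FDR limit alone is not given here. Both libraries with HA-GATA3 lay below both of the partner line in either T-bet state for Lta, Ltb and Tnf, and for 2.93% of all genes. The 4 libraries with HA-GATA3 lay below all 4 without for Lta and Ltb, and for 0.798% of all genes.

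**Figure D4:**
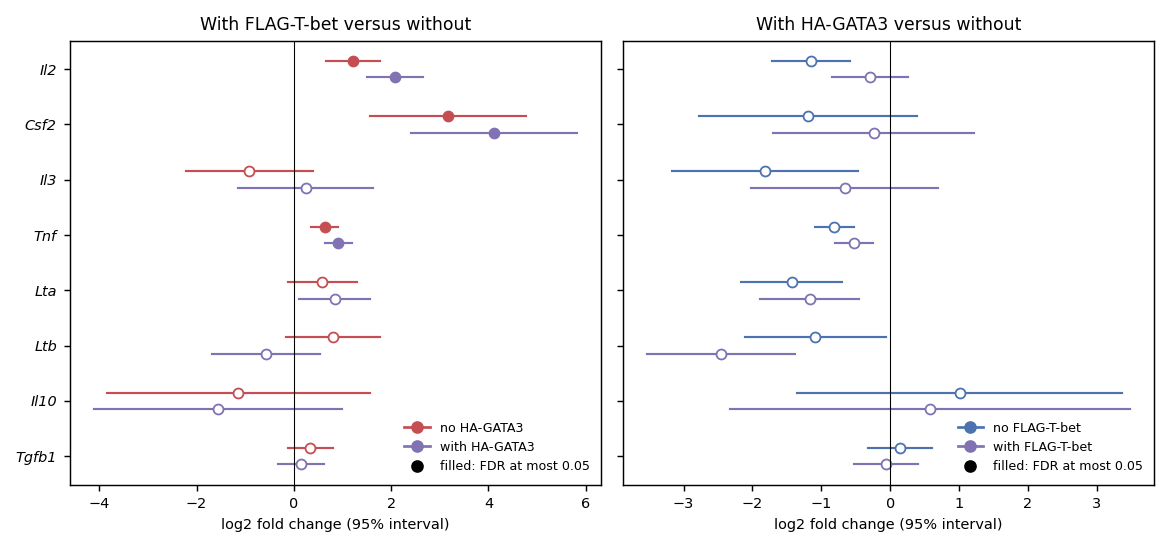
Points give the log2 FC of 8 members and lines its approximate 95% interval, on the left for lines with FLAG-T-bet versus those without and on the right for lines with HA-GATA3 versus those without, with filled points at an FDR of at most 0.05. On the left Csf2, Il2 and Tnf are filled in both GATA3 states, and on the right no point is filled while the intervals of Tnf, Lta and Ltb stay below 0 in both T-bet states.

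Cells with both factors were also set against GFP + Plum. No member passed the FDR limit in the main edgeR fit, where 4.87% of all genes did. In that fit 5 members had an unadjusted p below 0.05, Csf2 and Il2 higher (10.3% of all genes) and Il3, Ltb and Il22 lower (7.47%). Csf2 had a log2 FC of 2.93 (SE 0.69, edgeR FDR = 0.0537) and Il2 of 0.92 (SE 0.24, FDR = 0.0786). No member was called, against 2.61% of all genes. A fit of the 4 libraries alone called 1 (Csf2), and DESeq2 called 4 (Csf2, Il3, Il22 and Ltb). Over all genes these fits called 233 and 441, against 386 in the main fit. The T-bet effect with HA-GATA3 minus that without was tested as an interaction, which no member and 0% of all genes passed. Il2, with a log2 difference of 0.85 (95% interval 0.069 to 1.64), was the 1 member under an unadjusted limit of 0.05, which 2.58% of all genes passed. For Ltb the log2 difference was -1.37 and for Tnf 0.28, so a difference in the T-bet response between the GATA3 states was not shown for any of them.

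Receptors for these cytokines were examined as a list of 18 genes, of which 11 could be tested. The receptors of GM-CSF (Csf2ra, Csf2rb), IL-22 (Il22ra1, Il22ra2) and lymphotoxin (Ltbr), and the IL-10 receptor chain Il10ra, were among the 7 that were too low to test. In T-bet + Plum versus GFP + Plum 4 receptors rose while 1 fell, against 4.04% and 2.16% of all genes, and the median over the 11 was 0.45 on the log2 scale beside 0.011 over all genes. Il21r, the receptor of IL-21, rose from 0.655 to 5.46 CPM (log2 FC 3.06, SE 0.48, edgeR FDR = 0.00957), and Tgfbr1, a TGF-β receptor chain, fell from 65.6 to 23.3 CPM (-1.49, SE 0.13, FDR = 0.000632). The other 3 that rose, named after their values were seen, were the TNF receptors Tnfrsf1a and Tnfrsf1b and the IL-2 receptor chain Il2rb. In T-bet + GATA3 versus GFP + GATA3, where 3.73% of all genes rose and 2.05% fell, Il21r rose (3.52, edgeR FDR = 0.0121). Tgfbr1 (-1.18, FDR = 0.00199) and Tgfbr2 (-0.88, FDR = 0.0116) fell in that comparison. Ligand and receptor thus stood at different levels for IL-21, whose own gene had at most 3 counts in a library. No receptor passed for HA-GATA3.

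Of 8 tested genes for the release and latency of TNF and TGF-β, Furin, a protease that processes the TGF-β precursor, rose in both comparisons for FLAG-T-bet (log2 FC 0.86 with edgeR FDR = 0.0304, and 1.11 with FDR = 0.0116). No other gene of this list passed in them, and 4.04% and 3.73% of all genes rose there. Rhbdf2, which brings the TNF-releasing protease to the surface, was at 71.8 CPM in GFP + Plum and 91.1 in T-bet + Plum (FDR = 0.405), and the integrin chain Itgav at 173 and 245 (FDR = 0.357). Of 15 tested genes known to respond to the members, 2 rose in each of the same comparisons, where 4.04% and 3.73% of all genes rose. These were Pim1, a kinase induced by IL-2 and GM-CSF (0.91, edgeR FDR = 0.0408, and 1.97, FDR = 0.00178), and Nfkbia, an NF-κB target and inhibitor (0.90, FDR = 0.00993, and 1.36, FDR = 0.00175). Traf1, another NF-κB target, was at 7.03 CPM in GFP + Plum and 21.1 in T-bet + Plum (FDR = 0.0959).

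Of 21 tested factors of PMA and ionomycin signalling, 7 rose in T-bet + Plum versus GFP + Plum, and 5 rose and 1 fell in T-bet + GATA3 versus GFP + GATA3. Of all genes 4.04% rose in the former, and 3.73% rose and 2.05% fell in the latter. The NF-κB subunit gene Rel was at 303 CPM in GFP + Plum and 751 in T-bet + Plum (log2 FC 1.31, SE 0.18, edgeR FDR = 0.00551) and rose by 1.71 (FDR = 0.00176) in the lines with HA-GATA3. The early response genes Egr1 (1.31, edgeR FDR = 0.00331) and Egr2 (0.98, FDR = 0.00568) rose as well without HA-GATA3, and Egr2 also with it (1.05, FDR = 0.00442). The 1 factor that fell was Egr3 (-2.48, FDR = 0.0480), named after its value was seen. The median log2 FC of this list was 0.58 and 0.29 in these comparisons. No factor passed for HA-GATA3. Of 10 regulators of cytokine mRNA decay 0 passed the FDR limit in either comparison for FLAG-T-bet in edgeR, where 6.2% and 5.77% of all genes did. In the average over the GATA3 states 4 of the 10 passed, against 15.2% of all genes. Of these 3 fell, namely Zfp36l2 (-1.37, FDR = 0.0223), Rc3h2 (-0.43, FDR = 0.0400) and Hnrnpd (-0.40, FDR = 0.0336), and Zc3h12a, named after its value was seen, rose (0.48, FDR = 0.0459).

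Of 34 protein-coding neighbours with a start within 100 kb of a member, 22 were tested. Of these 1 rose in T-bet + Plum versus GFP + Plum, where 4.04% of all genes rose. This was Mapkapk2 next to Il10 (log2 FC 0.83, edgeR FDR = 0.0468), a kinase known to stabilise cytokine mRNA, named after its value was seen. Mapkapk2 was also the 1 neighbour that rose in T-bet + GATA3 versus GFP + GATA3 (1.37, FDR = 0.00673), where 3.73% of all genes rose. In the average T-bet effect 3 of the 22 rose (Mapkapk2, Nfkbil1 and Tmem91) and 1 fell (Ddx39b), against 8.55% and 6.61% of all genes. None of the 22 passed for HA-GATA3 in edgeR.

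Over the 8 libraries, log2 CPM of Csf2 and Il2 had a Pearson r of 0.93, of Tnf and Il2 0.897 and of Lta and Ltb 0.845, whereas Csf2 and Il3 had 0.2 and Csf2 and Il22 -0.975. These values share lines and depth and describe 8 points. The protein-coding genes most like Csf2 were Ccdc80, Ces2c and Mthfsl (r of 0.989, 0.985 and 0.985), and 377 of 11062 genes compared had r over 0.9. For Il22 the 3 most alike were Flcn, Vps37b and Smco4 (0.988, 0.987 and 0.984), with 392 genes over 0.9. For Il2 they were Ifrd1, Bco2 and Zfp239 (each 0.987), with 210 genes over 0.9, and for Tnf Cachd1 and Akna (0.988 and 0.97), with 64. Few genes followed Lta, Il3 and Ltb, with 7, 4 and 2 genes over 0.9, led by Alg3 (0.967), Abhd14b (0.933) and Pigh (0.93). For Il10 and Tgfb1 the leaders were Zfp207 (0.956) and Lrp10 (0.942).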

How the data were processed

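Poly(A) RNA of 8 EL4 libraries was sequenced by the authors as paired reads, which were filtered with FastQC, trimmed with Trim Galore and assigned to Gencode transcript models of GRCm38 with kallisto. The study's methods name release M20 and the deposited data are labelled M18, and the kallisto version is not given in the sources used here. The deposited files hold, for each of 136535 transcripts, an estimated count and the TPM as kallisto made them, with no further normalization by the authors. Estimated counts and TPM were summed per gene over the transcripts that share a gene ID, and counts were rounded for testing.

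Genes that passed filterByExpr (14791) entered 1 quasi-likelihood fit of all 8 libraries in edgeR (4.0.16, under R 4.3.3), scaled by TMM, with 1 group per line and 4 residual degrees of freedom. FDR is the Benjamini-Hochberg adjusted p over all genes tested, SEs were derived from the F statistic, and log2 CPM used a prior count of 2. DESeq2 1.42.0, other scalings, other filters, length offsets, the replicate number as a block, a fit of the compared libraries alone and the omission of each library were the alternatives. In simulated counts for 14364 genes with 200 of them changed in this comparison, edgeR found 93% of the changed genes in T-bet + Plum versus GFP + Plum with 5.1% false calls. The changed genes all had higher mean counts than Il10 and Il22, and their rises had a median fitted log2 FC of 1.95. Recovery of genes with low counts, or of changes as small as that of Tnf, was therefore not tested. Library totals ran from 8038284 to 16003190 estimated counts, and a floor of 3 counts per library stood in for 0, which covers counting error only. Libraries of a line differed beyond counting noise (chi-square per degree of freedom of 10.2 to 30.9), so no library was a copy of another, and that spread enters the tests. The p-values measure the spread between harvests of 1 line.

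The members and gene lists were chosen with earlier results of these data known. The text names the 10 members, from each list the 3 genes with the smallest FDR in a pairwise comparison, and the 3 protein-coding genes with the highest r to each member, of which 1 is not reported here. Positions are from Gencode M21 on GRCm38, and start regions from RefSeq. RNA from unstimulated cells and protein sequences were not analysed here.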

Additional observations from a re-analysis of the deposited data

How the results depend on the processing

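The number of members called (those past both the FDR and the fold limit) was recomputed under each alternative, and the cause of a change was not tested. In T-bet + Plum versus GFP + Plum it was 2, and became 1 with at least 10 counts in every library, 4 by FDR alone, and 0 to 1 when 1 library was left out. In T-bet + GATA3 versus GFP + GATA3 it was 3, became 4 by FDR alone, and was lower in some fits that left out 1 library. With at least 10 counts in every library Il22 was not tested, and Csf2 and Il2 were called there. In T-bet + GATA3 versus GFP + Plum it was 0, and became 4 with DESeq2, 3 with DESeq2 and length offsets, 1 with library size only, 4 with no filter, 1 with the compared libraries alone, and 0 to 2 when 1 library was left out. For the average GATA3 effect it was 0, and became 1 with DESeq2, with or without length offsets, 1 with no filter, and 0 to 2 when 1 library was left out. With both factors against T-bet + Plum it was 0, and became 1 with either DESeq2 fit and 1 with no filter. With no filter GFP + GATA3 versus GFP + Plum gave 1 in place of 0 and the interaction 2 in place of 0.

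The replicate numbers were not taken as pairs, since not every correlation between the deviations of same-numbered libraries exceeded 0.1 (4 of 6 did, range -0.0455 to 0.302). With the replicate block 3 members (Csf2, Il22 and Ltb) in place of 0 were called in T-bet + GATA3 versus GFP + Plum. Over all genes that fit called 464 there, against 386 in the main fit. With the block Lta and Tnf passed the FDR limit for the average GATA3 effect (edgeR FDR = 0.0164 and 0.0454). Lta also did for the average T-bet effect and when both factors were set against GFP + GATA3 (0.00730 and 0.0259).

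Log2 FCs changed sign when 1 library was left out for these combinations, none of which passed the FDR limit. With both factors against T-bet + Plum the values ran from -0.75 to 0.54 for Csf2, -0.60 to 0.083 for Il2 and -1.30 to 0.36 for Il3. In T-bet + GATA3 versus GFP + GATA3 they ran from -0.35 to 1.13 for Il3 and -1.19 to 0.37 for Ltb. The average T-bet effect ran from -0.85 to 0.11 for Il3 and -0.19 to 0.58 for Ltb, and the average GATA3 effect from -1.11 to 1.53 for Il10 and -0.099 to 0.22 for Tgfb1.

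Over all genes the calls were 446, 421, 386 and 666 for T-bet + Plum versus GFP + Plum, T-bet + GATA3 versus GFP + GATA3, T-bet + GATA3 versus GFP + Plum and the average T-bet effect. They were 243, 222, 196 and 257 with at least 10 counts in every library, and 814, 813, 762 and 937 with no filter. In T-bet + GATA3 versus GFP + Plum they were 441 with DESeq2 and 415 with DESeq2 and length offsets. There they were 363 with library size only and 233 with the compared libraries alone. For GFP + GATA3 versus GFP + Plum, both factors against T-bet + Plum and the average GATA3 effect the calls were 3, 5 and 7. With DESeq2 they were 29, 23 and 30, with DESeq2 and length offsets 28, 24 and 28, and with no filter 138, 124 and 136. The interaction gave 0, 15 with DESeq2 and 145 with no filter. With 1 library left out the calls in T-bet + GATA3 versus GFP + GATA3 came down to 197. At this depth Il21 lay at or under the floor of 3 counts in each library, as did Il22 in the lines with FLAG-T-bet, so no level below that floor can be given for them.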
